A study of Mus musculus with 18 samples.

Results

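The comparison described here asked whether reprogrammed cells and cells that failed to reprogram changed differently between 2 and 4 weeks. For each gene, the change of GFP+ induced cardiomyocyte-like cells (iCMs) from 2 to 4 weeks was taken, and the change of the GFP- cells over the same time was subtracted from it. This difference of 2 time changes, the interaction, was positive where a gene went up more, or down less, in iCMs, and negative where it went up more, or down less, in GFP- cells. It used 12 of the 18 arrays of the series: 3 of iCMs at 2 weeks, 3 of iCMs at 4 weeks, and 3 of GFP- cells at each of those times. The other 6 arrays, of mouse neonatal cardiomyocytes and cardiac fibroblasts, served only as a reference. All cells came from the CD1 strain. The labels describe the GFP- cells as fibroblasts in which reprogramming failed, and they name neither the factors given nor the promoter that drives GFP. They give no age of the animals, and they do not say whether the arrays of a group came from separate cultures, so each p-value reflects only how far these arrays spread, which may be technical.

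Direct reprogramming turns fibroblasts into cells resembling heart muscle by forced expression of cardiac transcription factors, usually Gata4, Mef2c and Tbx5. The converted cells have to assemble sarcomeres, store and release calcium and raise oxidative metabolism, while the fibroblast programme of matrix synthesis recedes and division slows. In reporter systems of this kind GFP is commonly driven by the promoter of Myh6, the alpha-myosin heavy chain of heart muscle, so the level of Myh6 can be part of the sort itself.

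Signal was measured on Affymetrix mouse Gene 1.0 ST arrays, and the deposited values are log2 intensities after RMA, so that 1 unit is a 2-fold difference. Array medians ran from 7.32 to 7.45, arrays of a group correlated at r = 0.99 to 0.995 across genes, and 19912 genes were tested. A group mean below 6.16 log2 was treated as not above background; this limit, chosen once the values were known, is the lowest 25th percentile among the 12 arrays. Precision is limited by having 3 arrays in a group. Genes are termed called where limma gave an adjusted p under 0.05 (Benjamini-Hochberg over all genes). In counts of list members, genes that rose or fell are those whose time change was called.

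The labels were checked against marker genes. Actc1, the cardiac alpha-actin, stood at 12.97 to 13.40 log2 on the 6 iCM arrays and at 8.33 to 10.04 on the 6 GFP- arrays. Sarcomere genes had a mean level of 10.05 ± 0.16 log2 (SD, n = 3) in iCMs and 8.07 ± 0.16 in GFP- cells at 2 weeks. In contrast, the 29 macrophage and leukocyte genes averaged 11.35 ± 0.00 in GFP- cells and 9.25 ± 0.15 in iCMs at 2 weeks. Fibroblast identity genes averaged 8.30 ± 0.13 in the GFP- cells and 8.53 ± 0.06 in the iCMs at that time. No member of the macrophage list had a group mean under 6.16, in GFP- cells or in iCMs. Because these are bulk samples, a larger number of cells of one type and more RNA per cell cannot be told apart.

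Of the 19912 genes, 664 were called in the interaction (3.33%), 306 positive (1.54%) and 358 negative (1.8%). At an unadjusted p under 0.05 there were 2996. Called interactions ran from -2.68 to 2.25 log2 and the smallest in size was 0.45, and 214 were at least 2-fold. Taken alone, the time change was called for 1958 genes in iCMs (9.83%), 695 higher at 4 weeks (3.49%) and 1263 lower (6.34%), and for 3033 genes in GFP- cells (15.2%), 1266 higher (6.36%) and 1767 lower (8.87%). The median size of the change over all genes was 0.12 log2 in iCMs and 0.15 in GFP- cells. Across all genes the 2 time changes, which share no arrays, correlated at r = 0.43, a description over genes, which are not independent. Of 836 genes called in both time changes, 792 went in one direction in both, and 747 of the 836 were not called in the interaction. Of 3319 genes called in only one cell group, 2760 were not called in the interaction, so a call in one group and none in the other did not by itself show a difference. The interaction count depended on single arrays: it was 414 without GFP- 2-week replicate 1, 399 without iCM 2-week replicate 3, 389 without GFP- 4-week replicate 1 and 405 without GFP- 4-week replicate 2.

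The GFP- cells were the group that moved for most called genes. Over all genes too, more time changes were called in GFP- cells (3033, 15.2%) than in iCMs (1958, 9.83%). The excess of GFP- cells is therefore not particular to the interaction calls. Of the 664, 367 (55.3%) had a called time change in GFP- cells alone, 174 of them with a positive and 193 with a negative interaction. Another 192 (28.9%) changed in iCMs alone, 87 positive and 105 negative. In 44 both groups changed in opposite directions, in 45 both changed in one direction to unequal extents, and in 16 neither time change was called alone. The largest of these 16 were Ptprb, Itga1 and Ryk, with interactions of -1.19, -0.90 and -0.83, and each lost the call on removal of any of 8 or 9 arrays. By the iCM change divided by the interaction, iCMs accounted for over 75% of the interaction in 135 genes and for under 25% in 332. A share under 25% does not mean that iCMs stood still. It can lie below 0, as for Lum (-58.2%), where iCMs moved in the same direction as GFP- cells by less. Likewise the 135 include genes such as Laptm5 (133%), where GFP- cells moved in the same direction by less. The 2-week and 4-week arrays did not overlap in iCMs for 410 of the called genes (61.7%; 27.7% of all genes) and in GFP- cells for 503 (75.8%; 33.3% of all genes).

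**Figure D1:**
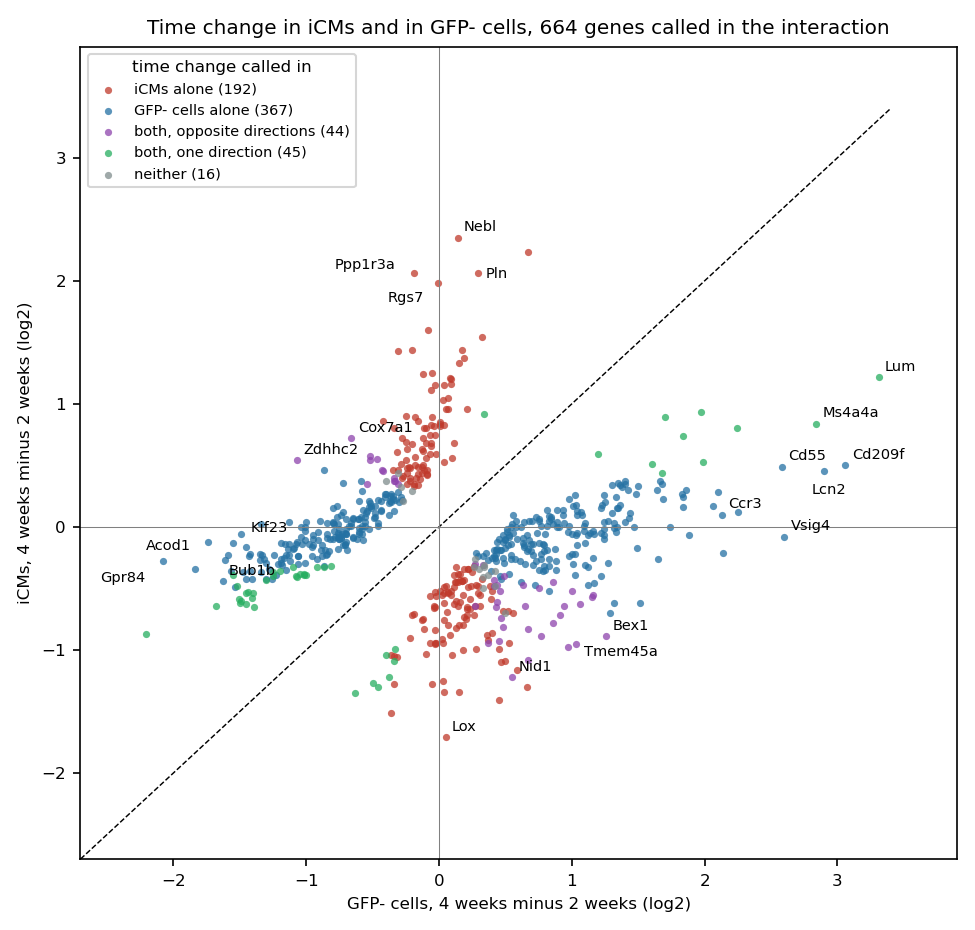
Change from 2 to 4 weeks (log2) in GFP- cells on the x axis and in iCMs on the y axis, 1 point for each of the 664 genes called in the interaction, coloured by the group whose own time change was called; the dashed line marks equal change. The 367 genes that changed in GFP- cells alone spread along the x axis, with Gpr84 at -2.08 and Cd209f at 3.06, and the 192 that changed in iCMs alone spread along the y axis, with Nebl at 2.35 and Lox at -1.71.

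Some genes of the contractile apparatus rose in iCMs and not by a call in GFP- cells. Nebl, which encodes nebulette, a protein that links actin to the Z-disc, stood at 6.80, 7.11 and 6.96 log2 in iCMs at 2 weeks and at 9.16, 9.45 and 9.29 at 4 weeks. In GFP- cells it was at 6.60, 6.58 and 6.32 and then at 6.55, 6.61 and 6.75. The iCM arrays did not overlap between the times, whereas the GFP- arrays did. Nebl rose 5.09-fold in iCMs, with an interaction of 2.21 ± 0.16 log2 (SE; adjusted p = 1.78e-05, limma). Averaged over its probe sets in place of the brightest one, the interaction was 1.33. Actn2, the alpha-actinin of the Z-disc, rose 2.21-fold in iCMs, from 8.70, 9.01 and 8.82 to 10.06, 10.12 and 9.78, while the GFP- means differed by -0.03 ± 0.12 (interaction 1.18 ± 0.17, adjusted p = 0.00198).

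A pair of genes from the skeletal muscle list also rose in iCMs alone. Tnnt3, a fast troponin T, was at 11.10, 11.52 and 11.16 in iCMs and then at 12.37, 12.34 and 12.56, against 8.25 to 8.63 on the 6 GFP- arrays. Its interaction was 1.07 ± 0.17 (adjusted p = 0.00342). Myl1, a fast myosin light chain, rose 2.91-fold in iCMs (interaction 1.23 ± 0.25, adjusted p = 0.0142), with both GFP- means under 6.16 and an adjusted p of 0.0528 after cyclic loess normalization. These 2 genes were the only called members of 25 skeletal muscle genes.

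A pair of calcium store genes rose in iCMs. Pln, phospholamban, which restrains the calcium pump SERCA, was at 7.70, 9.27 and 8.38 at 2 weeks and at 10.61, 10.72 and 10.20 at 4 weeks in iCMs. GFP- arrays lay between 6.71 and 7.11. The 2-week iCM arrays were widely spread, replicate 2 being the highest, yet all lay under the 4-week arrays. The rise was 4.16-fold and the interaction 1.77 ± 0.37 (adjusted p = 0.0171, limma), or 2.18 (adjusted p = 0.000291) without that array. Under the alternatives to this fit the interaction of Pln went down to 1.39 and its adjusted p up to 0.0471. Hrc, a calcium-binding protein of the sarcoplasmic reticulum, had the same highest array (7.68, 9.03 and 8.23, then 9.84, 9.88 and 9.54). It rose 2.71-fold, with an interaction of 1.64 ± 0.32 (adjusted p = 0.0114, limma) and of 2.0 without iCM 2-week replicate 2. Under the alternatives the interaction of Hrc went down to 1.33 and its adjusted p up to 0.0342.

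A metabolic gene of muscle rose in iCMs from a low level. Ppp1r3a, a subunit that targets protein phosphatase 1 to glycogen, was at 6.53, 6.84 and 6.73 in iCMs and then at 8.59, 9.13 and 8.55, a 4.16-fold rise. All 6 GFP- arrays were under 6.16, so no GFP- change was measurable (interaction as measured 2.25 ± 0.22, adjusted p = 0.000178). The 120 bases before its start are shown because a MEF2 motif, here in capitals, lies 100 bases before the start (chr6:14755275-14755394, minus strand, GRCm38.p6, from RefSeq).
Ppp1r3a: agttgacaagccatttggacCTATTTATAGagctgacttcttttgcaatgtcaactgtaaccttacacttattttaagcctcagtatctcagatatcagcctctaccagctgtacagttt
Windows of 250 bases before the starts of genes in the muscle lists held that motif in 12 of 115 (10.4%), against 2.92% of 32851 windows of all genes, on either strand. The CArG motif was in 8.7% of the muscle windows and 1.47% of all windows. A match describes letters only.

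A pair of cytochrome oxidase subunits found in muscle had called interactions among 23 respiratory chain genes. Cox7a1 moved in both groups: it went from 8.57, 8.95 and 8.63 to 9.42, 9.70 and 9.18 in iCMs, and from 8.80, 8.66 and 8.92 to 8.28, 7.93 and 8.21 in GFP- cells. The groups were level at 2 weeks (difference -0.08) and 1.30 apart at 4 weeks, with an interaction of 1.37 ± 0.20 (adjusted p = 0.00173). Cox8b moved in iCMs alone (2.16-fold; interaction 1.17 ± 0.25, adjusted p = 0.0165), and it missed the call without iCM 2-week replicate 3 (0.0506) or GFP- 4-week replicate 2 (0.0515). Pfkp, a phosphofructokinase, rose 1.38-fold in iCMs and fell 1.34-fold in GFP- cells (interaction 0.89 ± 0.16, adjusted p = 0.00507).

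Muscle lists as a whole shifted in iCMs by less than these genes did. Of 36 sarcomere genes, 5 were called positive and 0 negative, and the median interaction was 0.23 log2 beside 0.04 over all genes. Their median change was 0.17 in iCMs, where 8 rose and 0 fell, and -0.13 in GFP- cells, where 1 rose and 1 fell. The count of 5 was 2 without iCM 2-week replicate 3 or GFP- 4-week replicate 2, 3 without GFP- 2-week replicate 1 or 3 or iCM 4-week replicate 1 or 3, and 8 without iCM 2-week replicate 2. Calcium handling had 2 of 20 called positive (median 0.23), a count that was 6 without iCM 2-week replicate 2. The respiratory chain had 2 of 23 (median 0.32), and 22 of the 23 interactions were above 0. Over all genes 1.54% were called positive, and 11644 of the 19912 interactions were above 0. Ventricular genes had 3 of 7 called positive, Myl2, Myh7 and Mpped2, at 0.49 to 0.58, and 0 of 7 after cyclic loess normalization or without iCM 2-week replicate 3 or GFP- 4-week replicate 2. Only the removal of GFP- 2-week replicate 2 or iCM 2-week replicate 1 left the count at 3. Myh7 and Mpped2 rose in iCMs alone. Myl2, also a sarcomere gene, fell 1.28-fold in GFP- cells, and its iCM change of 0.23 ± 0.09 was not called. Of the 5 sarcomere calls 4 changed in iCMs alone and 1, Myl2, in GFP- cells alone.

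Other genes that rose in iCMs alone belong to no muscle list here. Mlf1, a leukemia-related adaptor protein, went from 8.72, 9.33 and 9.14 to 10.42, 10.62 and 10.45 in iCMs, a 2.69-fold rise (interaction 1.74 ± 0.19, adjusted p = 0.000333). Rgs7, a regulator of G protein signalling, was under 6.16 in all groups other than 4-week iCMs, where it read 7.06, 7.66 and 7.0. Its rise in iCMs was at least 2.11-fold (interaction as measured 1.99 ± 0.24, adjusted p = 0.000634). In the reference cells Mlf1 was 5.05 log2 higher in cardiomyocytes than in fibroblasts, and both reference means of Rgs7 lay under 6.16. Marchf11, a ubiquitin ligase, rose 3.02-fold in iCMs (interaction 1.68 ± 0.39, adjusted p = 0.029), and the removal of any of 5 arrays lost its call, with an adjusted p of up to 0.0788. Zdhhc2, an enzyme that attaches palmitate to proteins, crossed over: it rose 1.46-fold in iCMs and fell 2.1-fold in GFP- cells, which turned a difference of -0.54 into 1.07.

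**Figure D2:**
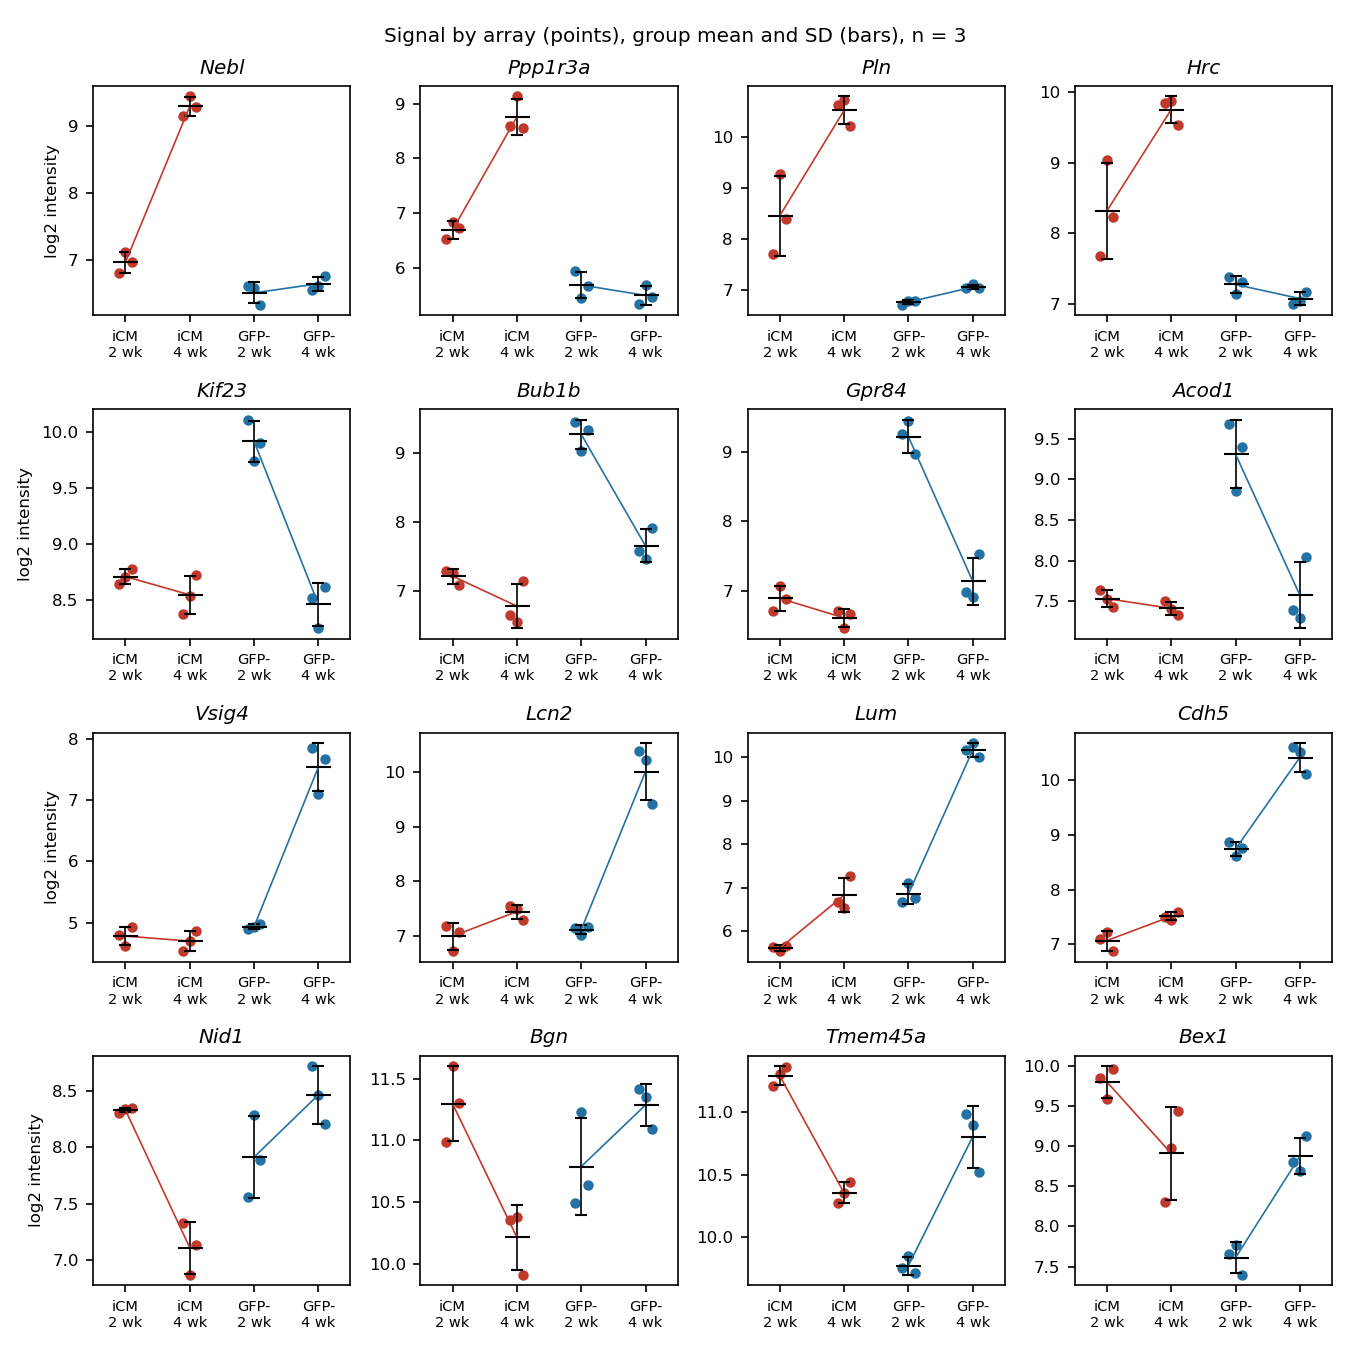
Log2 intensity of 16 genes on each array (points), with the group mean and SD (bars; n = 3 per group), for iCMs (red) and GFP- cells (blue) at 2 and 4 weeks; the y axes differ and do not start at 0. The upper row shows genes that rose in iCMs, such as Nebl, the next row genes that fell in GFP- cells, such as Gpr84, the third row genes that rose in GFP- cells, such as Lum, and the bottom row genes that fell in iCMs, such as Nid1.

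The list with the most positive interactions was mitosis, and there GFP- cells were the group that moved further. All 29 measured mitosis genes were called lower at 4 weeks in GFP- cells, with a median change of -1.32 log2. In iCMs 17 of the 29 were called lower (median -0.58), and 0 of the 29 changes were above 0. The interaction was called positive for 15 and negative for 0, with a median of 0.78. Of these 15, 9 changed in GFP- cells alone and 6 in both groups. DNA replication genes followed, with 24 of 27 called lower in GFP- cells (median -0.84) and 7 of 27 in iCMs (median -0.23). Of the 27 changes 0 were above 0 in GFP- cells and 3 in iCMs. Here 10 were called positive (median interaction 0.52), a count that was 6 without GFP- 2-week replicate 1 or 3, iCM 2-week replicate 3, or GFP- 4-week replicate 1 or 2. The mean level of the mitosis list went from 9.41 ± 0.11 to 8.14 ± 0.15 in GFP- cells and from 7.60 ± 0.05 to 7.04 ± 0.17 in iCMs, so GFP- cells stayed the higher group. The lower level of iCMs left less room for a fall above the background limit of 6.16. In iCMs 0 of the 29 genes had a mean under that limit at 2 weeks and 1 at 4 weeks.

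Promoters of the 3 mitosis genes with the highest interactions are printed to show the CCAAT motif and the TTTGAA motif of the cell cycle homology region, both known in promoters of genes of late cell cycle. Each is the 120 bases before the gene's start, on the gene's strand, with a motif found on either strand in capitals (GRCm38.p6, from RefSeq).
Kif23: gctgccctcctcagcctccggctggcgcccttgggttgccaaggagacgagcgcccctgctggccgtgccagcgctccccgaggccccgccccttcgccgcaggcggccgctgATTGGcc
Bub1b: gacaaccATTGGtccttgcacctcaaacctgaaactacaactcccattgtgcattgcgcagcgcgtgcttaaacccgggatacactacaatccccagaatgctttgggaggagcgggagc
Kif2c: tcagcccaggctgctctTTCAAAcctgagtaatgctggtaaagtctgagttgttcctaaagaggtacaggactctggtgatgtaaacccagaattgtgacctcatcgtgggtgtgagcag
Kif23 lies on the minus strand at chr9:61946800-61946919, with CCAAT, read as ATTGG, 7 bases before the start. Bub1b lies on the plus strand at chr2:118598091-118598210, with CCAAT 113 bases before the start. Kif2c lies on the minus strand at chr4:117178773-117178892, with TTTGAA, read as TTCAAA, 103 bases before the start. Of 27 windows of 250 bases for 25 mitosis genes, 20 held CCAAT (74.1%), and 57.1% of DNA replication windows did, against 33.8% of all windows. TTTGAA was in 40.7% of the mitosis windows, 10.7% of the DNA replication windows and 16% of all windows. These shares describe the windows and no test was made.

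Kif23, a kinesin of the central spindle needed for cytokinesis, was at 10.11, 9.74 and 9.90 in GFP- cells at 2 weeks and at 8.52, 8.25 and 8.62 at 4 weeks. In iCMs it was at 8.64, 8.71 and 8.78 and then at 8.38, 8.54 and 8.72. It fell 2.74-fold in GFP- cells without overlap, the iCM arrays overlapped, and at 4 weeks the groups were 0.08 apart (interaction 1.29 ± 0.17, adjusted p = 0.00105). Bub1b, a kinase of the spindle checkpoint, fell 3.09-fold in GFP- cells, from 9.45, 9.04 and 9.34 to 7.58, 7.46 and 7.92, and its iCM change of -0.44 ± 0.16 was not called (interaction 1.19 ± 0.22, adjusted p = 0.0086). Kif2c, a kinesin that takes microtubules apart, fell 2.52-fold in GFP- cells (interaction 1.10 ± 0.14, adjusted p = 0.000891). In iCMs Kif2c had means of 6.62 and then 6.39, close to the background limit of 6.16. A fall as large as in GFP- cells could therefore not have been read in iCMs for Kif2c. The same holds for Bub1b, with an iCM mean of 7.22 at 2 weeks. Kif23, with an iCM mean of 8.71 at 2 weeks, had room for such a fall. Mki67, the proliferation antigen Ki-67, fell 3.19-fold in GFP- cells and 1.95-fold in iCMs, and its interaction of 0.71 ± 0.19 missed the call (adjusted p = 0.0543).

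Among the replication genes, Uhrf1, which maintains DNA methylation at the fork, fell in both groups. It went from 9.86, 9.68 and 9.82 to 8.45, 8.40 and 8.16 in GFP- cells, and from 8.07, 8.14 and 7.95 to 7.63, 7.38 and 7.56 in iCMs (interaction 0.92 ± 0.15, adjusted p = 0.00292). Chaf1b, a subunit of chromatin assembly factor 1, fell 2.19-fold in GFP- cells (interaction 0.90 ± 0.17, adjusted p = 0.0088). Rfc4, part of the clamp loader, fell 1.49-fold there (interaction 0.87 ± 0.18, adjusted p = 0.0155). Neither had a called change in iCMs. Chaf1b had an iCM mean of 7.12 at 2 weeks, so its GFP- change of -1.13 would have passed under the background limit of 6.16 there. Uhrf1 and Rfc4 had room in iCMs for falls as large as in GFP- cells.

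Further genes fell in GFP- cells outside the cell cycle. Gpr84, a receptor for medium-chain fatty acids on myeloid cells, was at 9.25, 9.44 and 8.96 in GFP- cells at 2 weeks and at 6.99, 6.91 and 7.53 at 4 weeks, against 6.47 to 7.08 on the 6 iCM arrays. The fall was 4.21-fold (interaction 1.79 ± 0.23, adjusted p = 0.000807). Acod1, which makes itaconate in activated macrophages, fell 3.33-fold, from 9.68, 8.85 and 9.40 to 7.40, 7.29 and 8.04, and its iCM arrays overlapped between 7.33 and 7.64 (interaction 1.61 ± 0.28, adjusted p = 0.00487). In both genes the GFP- cells came within 0.53 log2 of the iCMs at 4 weeks, after differences of -2.32 and -1.78 at 2 weeks. Gpr84 and Acod1 had iCM means of 6.90 and 7.54 at 2 weeks. Falls as large as in GFP- cells would have passed under the background limit of 6.16 in iCMs and could not have been read. Among 18 glycolysis genes 7 fell in GFP- cells and 3 were called positive, among them Aldoc, an aldolase, which fell 1.73-fold there, and Tpi1, the triosephosphate isomerase, which fell 1.27-fold. Aldoc missed the call without iCM 2-week replicate 3 (0.0584), iCM 4-week replicate 3 (0.0535) or GFP- 4-week replicate 2 (0.0593).

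**Figure D3:**
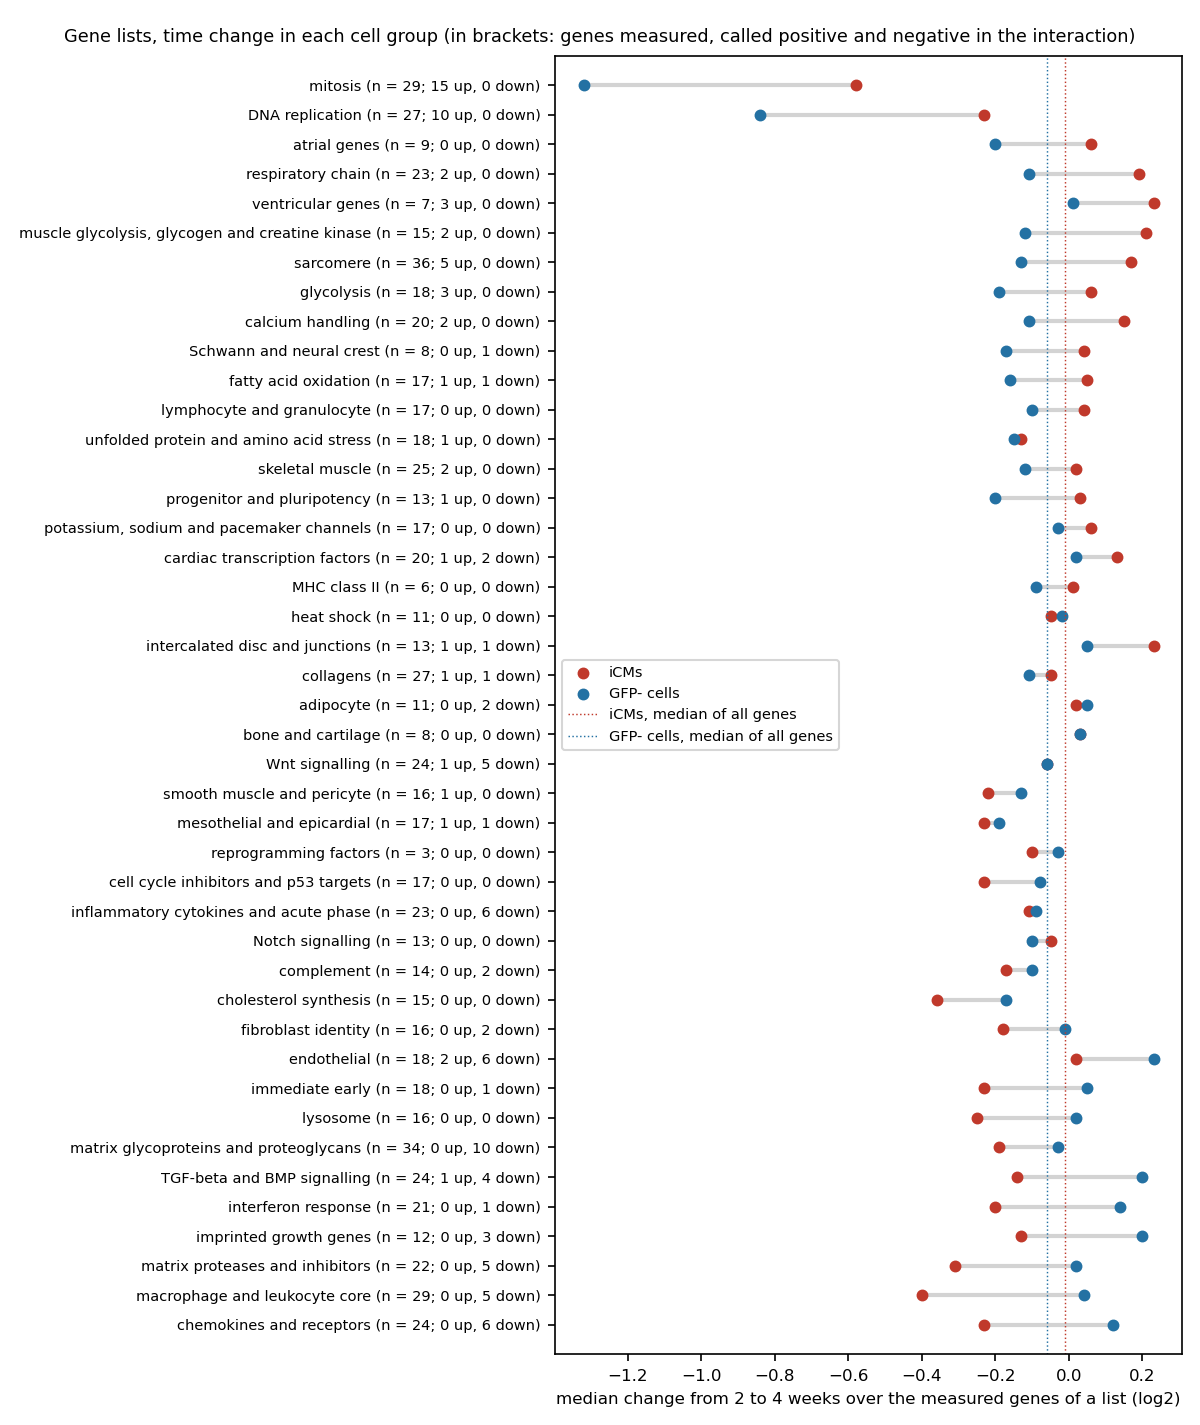
Median change from 2 to 4 weeks (log2, x axis) over the measured genes of each list, in iCMs (red) and GFP- cells (blue), ordered by the list's median interaction; dotted lines mark the medians of all genes, -0.01 and -0.06. Mitosis and DNA replication genes lie farthest to the left, at -1.32 and -0.84 in GFP- cells, and the macrophage list has the lowest median in iCMs after mitosis, -0.40, beside 0.04 in GFP- cells.

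Of the 10 lowest interactions, 8 belonged to genes that changed in GFP- cells alone, all of them upward. Vsig4, a complement receptor of tissue macrophages, was under 6.16 in every group other than 4-week GFP- cells, where it read 7.85, 7.09 and 7.66. Its rise there was at least 2.58-fold, and the interaction as measured was -2.68 ± 0.22 (adjusted p = 1.99e-05). Cd209f, a C-type lectin of the DC-SIGN family, was likewise under the limit elsewhere and at 7.46, 7.37 and 8.94 in 4-week GFP- cells, at least 3.39-fold higher (interaction as measured -2.56 ± 0.46, adjusted p = 0.00633). Replicate 3 was the highest of those arrays, and without it the interaction was -2.05. Ccr3, a chemokine receptor of eosinophils and other leukocytes, rose 4.38-fold, from 6.58, 6.83 and 6.84 to 8.89, 9.05 and 8.71, against 6.07 to 6.45 on all iCM arrays (interaction -2.03 ± 0.16, adjusted p = 1.99e-05).

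Ms4a4a, a membrane protein of alternatively activated macrophages, rose in both groups to unequal extents. It went from 7.86, 7.86 and 7.95 to 10.72, 10.55 and 10.92 in GFP- cells and from 6.32, 6.14 and 6.30 to 6.96, 7.34 and 7.0 in iCMs (interaction -2.0 ± 0.17, adjusted p = 1.99e-05). The macrophage and leukocyte list, for comparison, had a mean level of 11.35 ± 0.00 log2 at 2 weeks and 11.34 ± 0.11 at 4 weeks in GFP- cells, where 4 of its 29 members fell and 1 rose. Its part in the rises of these 4 genes was not tested. Hsf3, a heat shock factor, lay under 6.16 in all 4 groups, so its called interaction is given no value.

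Some genes of inflammatory and acute phase proteins rose in GFP- cells. Of 23 genes of this list, 6 rose and 3 fell there, with a median change of -0.09, and 0 rose and 4 fell in iCMs (median -0.11). Lcn2, lipocalin 2, which withholds iron from bacteria, was at 7.15, 7.02 and 7.17 and then at 10.39, 10.22 and 9.41 in GFP- cells, against 6.72 to 7.54 on the iCM arrays. It rose 7.44-fold (interaction -2.45 ± 0.27, adjusted p = 0.000333). Il6, interleukin 6, rose 2.85-fold in GFP- cells, from 5.89, 6.81 and 5.99 to 7.89, 7.53 and 7.81, and in iCMs it went from 6.38 to a mean of 5.76, which is under the limit (interaction as measured -2.13 ± 0.27, adjusted p = 0.000866). Ptx3, a pentraxin, rose 1.97-fold (interaction -1.22 ± 0.23, adjusted p = 0.00818). In the interaction 6 of the 23 were called negative and 0 positive, 4 of them moved by GFP- cells alone and 2 by iCMs alone, and the count was 3 without GFP- 2-week replicate 1 or 3, iCM 2-week or 4-week replicate 3, or GFP- 4-week replicate 2. The list's median interaction was -0.09, beside 0.04 over all genes.

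Cd55, which protects cells from complement, rose 5.99-fold in GFP- cells, from 7.70, 7.88 and 7.34 to 10.17, 10.06 and 10.43, and overtook the iCMs, which read 8.32 to 9.25 (interaction -2.09 ± 0.27, adjusted p = 0.000839). Bmx, a tyrosine kinase of the Tec family known from arterial endothelium, rose 4.76-fold, from 6.69, 6.80 and 6.72 to 9.39, 9.36 and 8.22 (interaction -2.13 ± 0.36, adjusted p = 0.00461). Olfr115, an olfactory receptor gene, was above 6.16 in the 4-week GFP- cells alone among the 4 groups, at 6.58 to 6.84, a rise of at least 1.45-fold. Lpl, lipoprotein lipase, rose 2.49-fold from levels that were already high, 10.71 to 11.15 (interaction -1.33 ± 0.20, adjusted p = 0.00239).

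Some endothelial genes rose in GFP- cells. Of 18 measured, 6 rose and 2 fell there, with a median change of 0.23, beside 3 and 2 and a median of 0.02 in iCMs; the interaction was called negative for 6 and positive for 2. Pecam1, the adhesion molecule CD31, went from 7.67, 7.85 and 7.72 to 9.70, 9.61 and 9.0 in GFP- cells, and stood at 6.60 to 6.99 in iCMs (3.23-fold; interaction -1.46 ± 0.21, adjusted p = 0.00142). Cdh5, VE-cadherin, rose 3.19-fold in GFP- cells, from 8.86, 8.61 and 8.75 to 10.61, 10.52 and 10.11, and 1.36-fold in iCMs (interaction -1.24 ± 0.18, adjusted p = 0.00198). The receptors of VEGF went other ways. Flt1 fell 1.84-fold in iCMs (interaction -1.24 ± 0.26, adjusted p = 0.0147). Kdr rose 1.37-fold in iCMs and fell 1.34-fold in GFP- cells (interaction 0.87 ± 0.17, adjusted p = 0.0127). The mean level of the whole list went from 7.75 ± 0.04 (lowest array 7.71, highest 7.78) to 8.15 ± 0.16 (7.97 to 8.27) in GFP- cells and was 7.34 at both times in iCMs. The part of these markers in the other rises of GFP- cells was not tested.

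Several secreted factors of the Wnt and BMP pathways rose in GFP- cells. Rspo3, a secreted enhancer of Wnt signalling, went from 6.76, 6.90 and 6.62 to 8.17, 8.11 and 8.0 in GFP- cells, and overlapped in iCMs between 6.84 and 7.25 (2.52-fold; interaction -1.37 ± 0.16, adjusted p = 0.000445). Dkk2, a Wnt antagonist, rose 3.19-fold in GFP- cells, from 7.75, 8.39 and 7.95 to 9.82, 9.79 and 9.51 (interaction -1.32 ± 0.21, adjusted p = 0.00259). Frzb, another secreted Wnt antagonist, rose 1.82-fold in GFP- cells and fell 1.37-fold in iCMs (interaction -1.32 ± 0.17, adjusted p = 0.000891). Bmp4, a ligand of the BMP family, rose 2.41-fold in GFP- cells, from 8.28, 8.73 and 8.55 to 10.02, 9.98 and 9.37 (interaction -1.56 ± 0.22, adjusted p = 0.00138). In all, 5 of 24 Wnt genes and 4 of 24 TGF-beta and BMP genes were called negative and 1 of each list positive. Over all genes 1.8% were called negative and 1.54% positive. Of the 6 Wnt calls 4 changed in GFP- cells alone, 1 in iCMs alone and 1 in both. Of the 5 TGF-beta and BMP calls 3 changed in GFP- cells alone and 2, Fst and Inhba, in iCMs alone. Fst fell 2.24-fold in iCMs (interaction -1.75 ± 0.40, adjusted p = 0.0247, limma). Inhba fell 1.63-fold there (interaction -1.27 ± 0.29, adjusted p = 0.024, limma). Fst lost the call on removal of any of 7 arrays and Inhba of any of 8. The Wnt list as a whole did not rise in GFP- cells: its median change there was -0.06, as over all genes. Its median interaction was -0.04, with 11 of 24 above 0. The TGF-beta and BMP list had medians of 0.20 in GFP- cells and -0.31 in the interaction. The Wnt count was 3 without GFP- 2-week replicate 1 or 3, iCM 2-week replicate 1 or 3, iCM 4-week replicate 1 or GFP- 4-week replicate 1. The TGF-beta count ranged from 2 to 8 over the single arrays left out. It was 2 without GFP- 2-week replicate 1 or 3, iCM 2-week replicate 3, iCM 4-week replicate 3 or GFP- 4-week replicate 1 or 2, it was 8 without GFP- 2-week replicate 2, and it was 7 without GFP- 4-week replicate 3.

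Some transcription factors and imprinted genes also rose in GFP- cells. Tbx20, a T-box factor of the developing heart, went from 8.21, 8.49 and 8.40 to 9.95, 9.94 and 9.43 there, while its iCM change of 0.37 ± 0.14 was not called, so the lead of iCMs shrank from 2.41 to 1.37 (interaction -1.04 ± 0.20, adjusted p = 0.00983). Nr2f2, a nuclear receptor of atrial and venous identity, rose 2.05-fold in GFP- cells (interaction -0.90 ± 0.17, adjusted p = 0.00924). Esrrg, from the same list of cardiac transcription factors, went the other way. It rose 1.68-fold in iCMs alone (interaction 0.82 ± 0.19, adjusted p = 0.0257) and lost the call on removal of any of 6 arrays. Of the 20 factors 2 were called negative and 1 positive, with a median interaction of 0.10 and 13 above 0. Mest, an imprinted gene expressed from the paternal copy, rose 2.24-fold in GFP- cells and fell 1.46-fold in iCMs (interaction -1.71 ± 0.23, adjusted p = 0.0011). Plagl1, an imprinted zinc finger factor, rose 2.06-fold in GFP- cells, from 8.17, 8.36 and 7.84 to 9.27, 9.27 and 8.95 (interaction -1.09 ± 0.19, adjusted p = 0.00478). With Peg3, 3 of 12 imprinted growth genes were called, all negative, though Peg3 missed the call without GFP- 2-week replicate 1 (0.0527), iCM 2-week replicate 3 (0.0519) or GFP- 4-week replicate 1 (0.0542).

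Some matrix genes gave negative interactions by both routes, falls in iCMs and rises in GFP- cells. Over all genes 1.8% were called negative. Of 34 matrix glycoproteins and proteoglycans 10 were called negative and 0 positive (median -0.31), with 13 falling and 2 rising in iCMs and 1 falling and 7 rising in GFP- cells. Lum, lumican, a collagen-binding proteoglycan, rose 9.93-fold in GFP- cells, from 6.67, 7.11 and 6.77 to a mean of 10.16 ± 0.16 (SD, n = 3), with no overlap. It rose in iCMs too, by at least 1.58-fold, since all 3 arrays at 2 weeks were under 6.16 and those at 4 weeks read 6.67, 6.53 and 7.27 (interaction as measured -2.09 ± 0.23, adjusted p = 0.000333). Decorin (Dcn), named after its values were seen, rose 2.71-fold in GFP- cells from 11.08 ± 0.11 to 12.51 ± 0.10 (SD, n = 3), with overlapping iCM arrays at 11.15 to 11.76.

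Nid1, a basement membrane protein, went the other way in iCMs. It fell there from 8.31, 8.34 and 8.35 to 7.33, 6.87 and 7.13, a 2.34-fold fall, and rose 1.47-fold in GFP- cells, where replicate 2 at 2 weeks (8.29) overlapped the 4-week arrays (interaction -1.78 ± 0.24, adjusted p = 0.00105). Bgn, biglycan, named after its values were seen, fell 2.12-fold in iCMs, from 10.99, 11.60 and 11.30 to 10.35, 10.38 and 9.91, with GFP- arrays that overlapped between 10.49 and 11.42 (interaction -1.58 ± 0.27, adjusted p = 0.00475). Fibronectin (Fn1), named in the same manner, fell 2.05-fold in iCMs, with a GFP- difference of 0.10 ± 0.15. Lox, which crosslinks collagen, fell 3.28-fold in iCMs, but its interaction of -1.76 ± 0.45 (adjusted p = 0.0442) lost the call when any of 9 arrays was removed, with an adjusted p of up to 0.121. Timp1, an inhibitor of matrix proteases, fell 2.0-fold in iCMs, from 10.72, 10.81 and 10.75 to 9.51, 9.76 and 10.01 (interaction -1.18 ± 0.20, adjusted p = 0.0041). Col5a2, a fibrillar collagen chain, fell 1.65-fold in iCMs (interaction -0.98 ± 0.18, adjusted p = 0.00756), and Col4a6, of basement membrane collagen, rose 1.48-fold (0.75 ± 0.13, adjusted p = 0.00626). They were the called members of 27 collagens. The collagen list as a whole had a median interaction of 0.01, with 14 of 27 above 0. Of its members 1 rose and 6 fell in iCMs, and 0 rose and 2 fell in GFP- cells.

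Some genes moved in opposite directions in the cell groups. Pdgfra, a growth factor receptor that marks fibroblasts, was level at 2 weeks, at 8.25, 8.01 and 8.20 in iCMs and 8.31, 8.30 and 8.12 in GFP- cells. At 4 weeks it was at 7.64, 7.48 and 7.43 in iCMs and at 8.96, 8.88 and 8.86 in GFP- cells, with no overlap (interaction -1.29 ± 0.14, adjusted p = 0.000249). Its list as a whole did not rise in GFP- cells. Of 16 fibroblast identity genes 2 rose and 5 fell in GFP- cells, and 1 rose and 6 fell in iCMs. The interaction was called negative for 2 and positive for 0, with a median of -0.15 beside 0.04 over all genes. Tmem45a, a membrane protein, fell 1.93-fold in iCMs, from 11.21, 11.31 and 11.36 to 10.27, 10.35 and 10.44, and rose 2.05-fold in GFP- cells, from 9.75, 9.85 and 9.71 to 10.99, 10.90 and 10.52 (interaction -1.98 ± 0.16, adjusted p = 1.99e-05). Ereg, the EGF receptor ligand epiregulin, fell 1.97-fold in iCMs and rose 1.95-fold in GFP- cells (interaction -1.94 ± 0.23, adjusted p = 0.000417). Bex1, a small adaptor protein with a cardiomyocyte mean of 11.11 and a fibroblast mean under 6.16, fell from 9.85, 9.58 and 9.96 to 8.30, 8.98 and 9.44 in iCMs. It rose from 7.66, 7.77 and 7.40 to 8.80, 8.69 and 9.12 in GFP- cells, so a lead of 2.19 in iCMs ended at 0.03 (interaction -2.16 ± 0.31, adjusted p = 0.00142).

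Many macrophage and chemokine genes fell in iCMs. Of 29 macrophage and leukocyte genes, 15 fell and 0 rose in iCMs (median -0.40), 4 fell and 1 rose in GFP- cells (median 0.04), and 5 were called negative in the interaction. The list's mean level fell in iCMs from 9.10 to 9.40 over the 2-week arrays to 8.73 to 8.87 over the 4-week arrays. Laptm5, a lysosomal protein of blood cells, was at 9.97, 10.36 and 10.23 and then at 9.34, 9.29 and 9.21 in iCMs, against 12.38 to 12.66 on the GFP- arrays (interaction -0.68 ± 0.14, adjusted p = 0.013). Csf1r, the receptor of macrophage colony-stimulating factor, fell 2.06-fold in iCMs and 1.32-fold in GFP- cells (interaction -0.64 ± 0.12, adjusted p = 0.0066, or 0.0565 in a fit of all 18 arrays). Ccl3, a chemokine that attracts leukocytes, fell 1.88-fold in iCMs, from 9.67, 9.87 and 9.76 to 8.84, 9.07 and 8.66, and differed by 0.02 ± 0.11 in GFP- cells (interaction -0.93 ± 0.16, adjusted p = 0.00492). Ccl2, a monocyte chemokine, fell 2.42-fold in iCMs (interaction -0.94 ± 0.19, adjusted p = 0.0141). Of 24 chemokines and receptors, 6 were called negative (median -0.60), or 3 without GFP- 4-week replicate 1 or 2. Of these 6, 3 changed in iCMs alone, 1 in GFP- cells alone and 2 in both groups in one direction. Cxcl12, the largest of them, rose 2.17-fold in GFP- cells alone (interaction -1.44 ± 0.31, adjusted p = 0.0179, limma). Over this list 0 rose and 9 fell in iCMs (median -0.23), and 5 rose and 5 fell in GFP- cells (median 0.12).

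The count of 5 macrophage genes was sensitive to the arrays and the scaling. It was 2 without GFP- 2-week replicate 1 or 3, iCM 2-week replicate 2 or 3, or GFP- 4-week replicate 1, 3 without GFP- 4-week replicate 2 or 3, and 13 without iCM 2-week replicate 1. It was 10 after quantile or cyclic loess normalization. The part of these markers in the falls of matrix genes in iCMs was not tested. At both times Laptm5 and Csf1r were lower in iCMs than in GFP- cells, as was Adgre1, the F4/80 antigen, at 8.87 to 10.04 against 12.01 to 12.91.

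Several genes that define the cell types showed no called interaction, which does not show that they changed alike. Myh6 was at 9.93, 11.29 and 10.73 in iCMs at 2 weeks and at 12.09, 12.02 and 11.89 at 4 weeks, and between 6.74 and 7.25 on the GFP- arrays. It rose 2.54-fold in iCMs, and the interaction was 1.05 ± 0.32 (adjusted p = 0.102), but 1.37 with an adjusted p of 0.00748 without iCM 2-week replicate 2, the highest of its group. Nppa, the atrial natriuretic peptide, fell in both groups, 1.95-fold in iCMs and 2.67-fold in GFP- cells (interaction 0.45 ± 0.32, adjusted p = 0.563). Col1a1, the main fibrillar collagen, also fell in both, 2.0-fold and 1.56-fold (interaction -0.36 ± 0.17, adjusted p = 0.329). Actc1 had an interaction of 0.00 ± 0.41 (adjusted p = 0.999) and Ryr2, the calcium release channel, of 0.34 ± 0.15 (0.311). Tnnt2 read 13.68 to 13.83 on the iCM arrays, close to the array maxima of 13.84 to 13.95, so a further rise could not be read there and its interaction is given no value. None of the 3 factors Gata4, Mef2c and Tbx5 was called, with interactions of -0.07 ± 0.14, -0.16 ± 0.18 and 0.33 ± 0.17.

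The interaction can widen or narrow the difference between the groups. Of the 664 genes, the iCM minus GFP- difference widened from 2 to 4 weeks in 234, narrowed in 251 and changed sign in 179. Among positive interactions 78 widened and 163 narrowed, and among negative ones 156 widened and 88 narrowed. Nebl is an example of widening, from 0.46 to 2.67, and Bub1b of narrowing, from -2.06 to -0.88. This way of counting was added after the data had been seen.

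The direction of the calls was set beside the reference cells, which share no array with the interaction. Cardiomyocytes and fibroblasts differed by a call in 41.2% of all genes, 19.9% higher in cardiomyocytes and 21.4% higher in fibroblasts. Of the 306 positive interactions, 147 (48.0%) were higher in cardiomyocytes and 51 (16.7%) in fibroblasts. Of the 358 negative ones, 65 (18.2%) were higher in cardiomyocytes and 243 (67.9%) in fibroblasts. For positive calls moved by iCMs alone the shares were 82.8% and 4.6%, and for those moved by GFP- cells alone 33.3% and 21.3%. For negative calls moved by iCMs alone they were 12.4% and 74.3%, and for those moved by GFP- cells alone 21.2% and 63.2%. The deposited fibroblast arrays also carry macrophage genes, such as Msr1, a scavenger receptor, at 12.33 log2 against 5.68 in cardiomyocytes, so higher in fibroblasts does not mean a fibroblast gene.

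**Figure D4:**
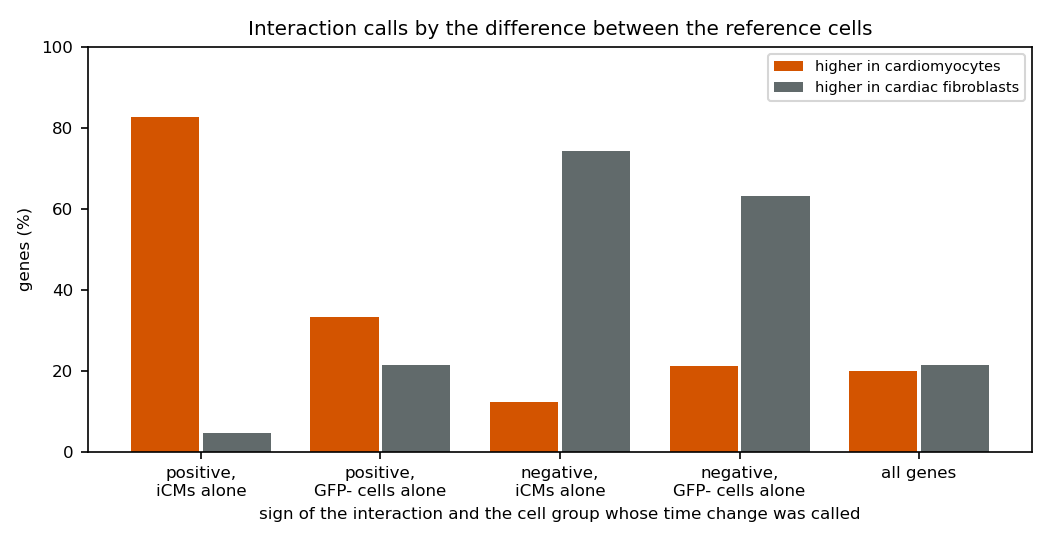
Share of genes (%, y axis from 0) that are called higher in cardiomyocytes (orange) or in cardiac fibroblasts (grey), for interaction calls by sign and by the group whose time change was called, and for all genes. Positive calls moved by iCMs alone were higher in cardiomyocytes in 82.8%, against 33.3% of those moved by GFP- cells alone and 19.9% of all genes.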

How the data were processed

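RNA of 4 groups of 3 arrays was compared. The authors deposited log2 values per probe set made by RMA, per the submitters' processing notes; its version and the probe annotation are not given in the sources used here. RMA corrects background, normalizes across arrays and compresses low signals. The labels name the PicoPure kit for RNA isolation and an Ambion MessageAmp II kit for labelling.

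Of 28682 probe sets 21755 name 1 gene. Those naming several (1592) or none (5335) were left out. For 997 genes with several probe sets, the brightest on average over the 18 arrays stood for the gene, leaving 19912 genes. By Entrez ID 21664 probe sets matched RefSeq, and 0 symbols changed.

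A coefficient per group was fitted to the 12 arrays with limma 3.58.1 in R 4.3.3 (lmFit, eBayes; prior 6.44 degrees of freedom and SD 0.132 log2; 8 residual). A separate fit of 6 arrays compared cardiomyocytes with fibroblasts. Tests were two-sided, with Benjamini-Hochberg adjustment over all genes in each contrast and a threshold of 0.05. The fitting code was tested on simulated data. A gene was assigned to the group or groups whose own time change was called. A fold across a group mean under 6.16 log2 is given as a lower bound, computed against 6.16.

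Genes and the 43 lists (741 measured genes) were chosen with earlier results of these data known. Named genes are the 10 highest and 10 lowest called interactions, up to 3 called members per list, 3 per mover class, and 17 anchors. Predicted genes were left out. Alternatives were other normalizations, array weights, variance priors, all 18 arrays, a block on replicate number, low genes left out, other probe set rules, a 2-fold minimum and leaving out each array.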

Additional observations from a re-analysis of the deposited data

Results flagged for a closer look

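The change from 2 to 4 weeks differed between iCMs and GFP- cells for 664 genes by the test of the interaction itself (limma, adjusted p under 0.05). The genes with the largest differences are listed with their interaction in log2 (n = 3 arrays per group). Positive values were found for Ppp1r3a (2.25), Nebl (2.21), Rgs7 (1.99), Pln (1.77), Mlf1 (1.74), Marchf11 (1.68) and Hrc (1.64), whose own change was called in iCMs alone. Gpr84 (1.79) and Acod1 (1.61) changed in GFP- cells alone, and Zdhhc2 (1.61) changed in both in opposite directions. Negative values were found for Vsig4 (-2.68), Cd209f (-2.56), Lcn2 (-2.45), Olfr115 (-2.35), Bmx (-2.13), Il6 (-2.13), Cd55 (-2.09) and Ccr3 (-2.03), whose own change was called in GFP- cells alone. Lum (-2.09) rose in both, and Bex1 (-2.16) moved in opposite directions. Values for Ppp1r3a, Rgs7, Vsig4, Cd209f, Olfr115, Il6 and Lum rest on at least 1 group mean under 6.16 log2.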

How the results depend on the processing

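No interaction called in the 12-array fit changed sign under any of the 22 alternatives, and 60 of the 92 named genes that were called kept the call under all of them that could give a value. Array weights gave 3833 interaction calls (1975 positive, 1858 negative), 5780 in iCMs and 5883 in GFP- cells over time, the classes iCMs alone 1272, GFP- cells alone 1622, opposite 346, one direction 317 and neither 276, and gaps widened 956, narrowed 1215 and changed sign 1662. Requiring 2-fold left 214 (66 and 148), 102 in iCMs and 307 in GFP- cells. With 2-fold asked of the cardiomyocyte against fibroblast difference alone, 76 of the 306 positive calls were higher in cardiomyocytes and 22 in fibroblasts, and of the 358 negative calls 32 and 150. Quantile normalization put 72 in the opposite class and 9 in neither, cyclic loess 71 and 8. Leaving out low genes put 6 in neither. Calling time changes at 0.01 put 7 in opposite, 15 in one direction and 112 in neither.

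Leaving out 1 array gave 389 to 857 interaction calls (181 to 325 positive, 206 to 532 negative), 998 to 2222 in iCMs, 1944 to 3387 in GFP- cells, 96 to 224 iCMs alone, 225 to 484 GFP- cells alone, 20 to 72 opposite, 19 to 58 in one direction, 4 to 28 neither, and gaps 137 to 264 widened, 141 to 368 narrowed and 110 to 239 changed sign. With the replicate number as a block 758 were called, 627 of them among the 664. Ryk then missed the call (adjusted p = 0.0511, limma) and Mki67 gained it (0.0341). Across genes, deviations from the group mean correlated at -0.3 to 0.45 between same-number arrays of different groups. Between arrays of other numbers they correlated at -0.51 to 0.41, so the numbers were not taken as pairs. Of 1892 list counts under alternatives 292 moved by over 1.5 times. Values near background limit what a fall can show.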

Other observations

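Cholesterol synthesis genes fell in both groups, 7 of 15 in iCMs (median -0.36 log2) and 7 of 15 in GFP- cells (median -0.17), with 0 rises, and 0 were called in the interaction (limma). Over all genes 6.34% fell and 3.49% rose by a call in iCMs, and 8.87% fell and 6.36% rose in GFP- cells. Of 16 lysosome genes 7 fell and 2 rose in iCMs, and 1 fell and 2 rose in GFP- cells; the median interaction was -0.28 and 0 were called. Interferon response genes had a median change of -0.20 in iCMs and 0.14 in GFP- cells, and 1 of 21 was called, Ifit3, which rose 2.18-fold in GFP- cells (interaction -1.59 ± 0.36, adjusted p = 0.0234, limma). Ifit3 missed the call without iCM 2-week replicate 3 (0.0614), iCM 4-week replicate 1 (0.0663) or iCM 4-week replicate 2 (0.06).

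The lists of other cell types had 0 to 2 called members each, where 3.33% of all genes were called in the interaction. Among 17 lymphocyte and granulocyte genes 0 were called, and their mean level was 6.07 to 6.29 log2 in the 4 groups. Smooth muscle and pericyte genes had 1 of 16 called, Itga8, an integrin, which fell 2.39-fold in GFP- cells and lost the call on removal of any of 6 arrays (adjusted p of up to 0.0792, limma). Of 11 adipocyte genes 4 rose in GFP- cells and 2 were called negative, Lpl and Fabp4, a fatty acid binding protein that rose 1.45-fold there (interaction -0.77 ± 0.15). Of 17 mesothelial and epicardial genes 4 fell and 1 rose in GFP- cells and 3 fell in iCMs. The called ones were Cdh1, E-cadherin, which fell 1.65-fold in GFP- cells, and Aldh1a2, a retinoic acid synthesis enzyme, which rose 1.9-fold there and lost the call in the fit of all 18 arrays (0.0523) and without GFP- 2-week replicate 1 (0.0509) or 3 (0.0605), iCM 2-week replicate 3 (0.0619), iCM 4-week replicate 1 (0.0596) or GFP- 4-week replicate 2 (0.0633). Among 8 Schwann and neural crest genes Pmp22, a myelin protein, was called, with a 1.74-fold fall in iCMs, and among 8 bone and cartilage genes 0 were. In a fit of all 28682 probe sets, 85 of the 6927 that name no gene or several were called in the interaction (1.23%), 54 positive and 31 negative, beside 518 of the 21755 that name 1 gene (2.38%).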
